A study of Arabidopsis thaliana with 9 samples.

Results

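Growing plant cells are held in by a wall of cellulose fibres tied together by xyloglucan, and 4 groups of genes that build or loosen this wall are described here in Arabidopsis thaliana roots: expansins, xyloglucan endotransglucosylase/hydrolases (XTHs), family GH9 cellulases and cellulose synthase-like (CSL) genes. Members were taken as probe sets with exactly 1 gene whose symbol or synonym starts with EXPA, EXPB, EXLA, EXLB, XTH, GH9, CESA or CSL and a number, leaving out the root hair expansins EXPA7 and EXPA18. This gave 60 probe sets for 59 genes among 38408 probe sets, of which 16722 had exactly 1 gene. RefSeq lists 134 genes with such names, so the other members of these families were not analysed here. By family these were 11 α-expansins (EXPA), 10 other expansins (5 EXPB, 3 EXLA and 2 EXLB), 10 XTHs, 19 GH9 genes and 9 CSL genes. The 10 cellulose synthase (CESA) genes in RefSeq had no probe set paired with them alone, so the label cellulose synthase stands here for the cellulose synthase-like genes. EXPA20 was measured by 2 probe sets.

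RNA came from roots of 4-day-old Col-0 seedlings grown on agar medium under long days, with root given as the tissue and root tips as the source. Wild-type plants, a bHLH49 loss-of-function mutant and a bHLH49 overexpressor were compared, with 3 arrays for each genotype. bHLH49 belongs to the basic helix-loop-helix family of transcription factors. The labels name neither the mutant allele nor the promoter of the overexpressor, and do not say how many independent lines were used. Whether the 3 repeats were grown separately is not stated, and p-values therefore reflect only how these arrays vary, which may be technical. All values are log2 expression levels from the authors' RMA table, levels of different probe sets are not compared with each other, and "rose" or "fell" stands for an adjusted p below 0.05 in a limma fit to all 9 arrays, adjusted over all probe sets.

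As background, expansins loosen the wall at low pH without cutting its polymers, and are split into α-expansins, β-expansins (EXPB) and the expansin-like groups EXLA and EXLB, whose activity is not established. XTHs cut and rejoin xyloglucan chains, GH9 enzymes cut glucan chains of the cellulose type, and CSL proteins make other wall backbones: mannans for CSLA, xyloglucan for CSLC and a cellulose-like glucan of tip-growing cells for CSLD. In growing shoot organs, auxin acidifies the wall and raises the transcripts of several expansins and XTHs.

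The arrays had medians between 5.85 and 5.92 and lower quartiles between 3.65 and 3.70. Of the 60 member probe sets, 47 lay at or above the lower quartile of every array and 7 lay below it on all 9 arrays (CSLA01, EXPA21, EXPB4, EXLA3, GH9B9, GH9B11 and GH9B16). The low filter was not applied to the main results, so all 60 probe sets were tested. Bulk tissue was measured, so a lower share of a cell type and less RNA per cell cannot be told apart. Of 28 root marker genes 4 were measured, RCPG, PRX7, PRX44 and SGN3, and RCPG alone passed, in both comparisons with the overexpressor. Their summed level rests mostly on PRX44 and SGN3, so that a change of RCPG hardly shows in it. This sum was 11.51 to 11.60 in wild type, 11.35 to 11.52 in the mutant and 11.46 to 11.57 in the overexpressor. The 3 of 21 shoot markers that were measured, RCA, LHCB4.1 and LHCB4.2, had a summed level of 8.51 to 8.63, 8.62 to 8.74 and 8.54 to 8.64 in the same order, and 0 of them passed in any comparison. None of the 7 xylem markers was measured.

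In the bHLH49 overexpressor 6 wall genes rose and 0 fell. The other 54 of the 60 member probe sets missed the threshold against wild type, where 1.35% of all probe sets passed, 0.745% higher and 0.609% lower. They were 2 α-expansins (EXPA4 and EXPA9), 2 XTHs (XTH20 and XTH27) and 2 cellulases, GH9C2 and GH9C3. The changes ran from 1.2-fold for XTH27 to 2.05-fold for GH9C3, apart from XTH20, which is dim in wild type so that its fold is less certain. The list and its families were chosen with earlier results of these data known, so the count is a description.

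GH9C3 (AT4G11050) had the lowest adjusted p of the 60. It belongs to class C of the GH9 cellulases, secreted enzymes with a carbohydrate-binding domain at their end. Its level was 8.40, 8.30 and 8.18 on the wild-type arrays, 8.10, 8.18 and 8.08 on the mutant arrays and 9.30, 9.40 and 9.28 on the overexpressor arrays. All 3 overexpressor arrays lay above the other 6, while mutant and wild type met at 8.18. The change against wild type was 2.05-fold (log2 1.04 ± 0.07, SE; limma adjusted p = 0.0016).

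GH9C2 (AT1G64390), of the same class, showed a smaller rise. It read 10.37, 10.32 and 10.32 in wild type, 10.34, 10.66 and 10.44 in the mutant and 10.83, 11.05 and 10.87 in the overexpressor. The overexpressor arrays were again the highest, and the mutant arrays overlapped those of wild type. The change against wild type was 0.58 ± 0.09 (log2, SE; limma adjusted p = 0.0316). The other measured gene of the class, GH9C1 (AT1G48930), which is known from root hairs, stood at 0.02 ± 0.09 in the overexpressor.

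EXPA4 (AT2G39700), an α-expansin, had levels of 7.15, 7.15 and 7.22 in wild type, 7.30, 7.57 and 7.59 in the mutant and 7.99, 8.28 and 8.22 in the overexpressor. The 3 genotypes did not overlap, with the mutant between the other two. It rose 1.99-fold in the overexpressor (log2 1.00 ± 0.10, SE; limma adjusted p = 0.00498). EXPA9 (AT5G02260), another α-expansin, had levels of 10.36, 10.42 and 10.54 in wild type, 10.33, 10.29 and 10.40 in the mutant and 10.73, 10.82 and 10.85 in the overexpressor. Here the mutant overlapped wild type and only the overexpressor stood apart. Its change was 0.36 ± 0.07 (log2, SE), just inside the threshold (limma adjusted p = 0.0497).

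XTH20 (AT5G48070), an XTH of vascular tissue, was dim outside the overexpressor. Its level was 3.42, 3.33 and 2.93 in wild type and 3.63, 3.36 and 3.45 in the mutant, all below the lower quartile of their arrays, and 4.13, 4.34 and 4.37 in the overexpressor, above it. The overexpressor arrays did not overlap the other 6, and the change against wild type was 1.05 ± 0.14 (log2, SE; limma adjusted p = 0.0154). XTH27 (AT2G01850, also EXGT-A3), known from developing leaf veins, had levels of 7.07, 7.07 and 7.03 in wild type, 7.05, 7.02 and 7.10 in the mutant and 7.31, 7.34 and 7.31 in the overexpressor. Its rise was small but even, at 0.27 ± 0.05 (log2, SE; limma adjusted p = 0.0492).

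**Figure D1:**
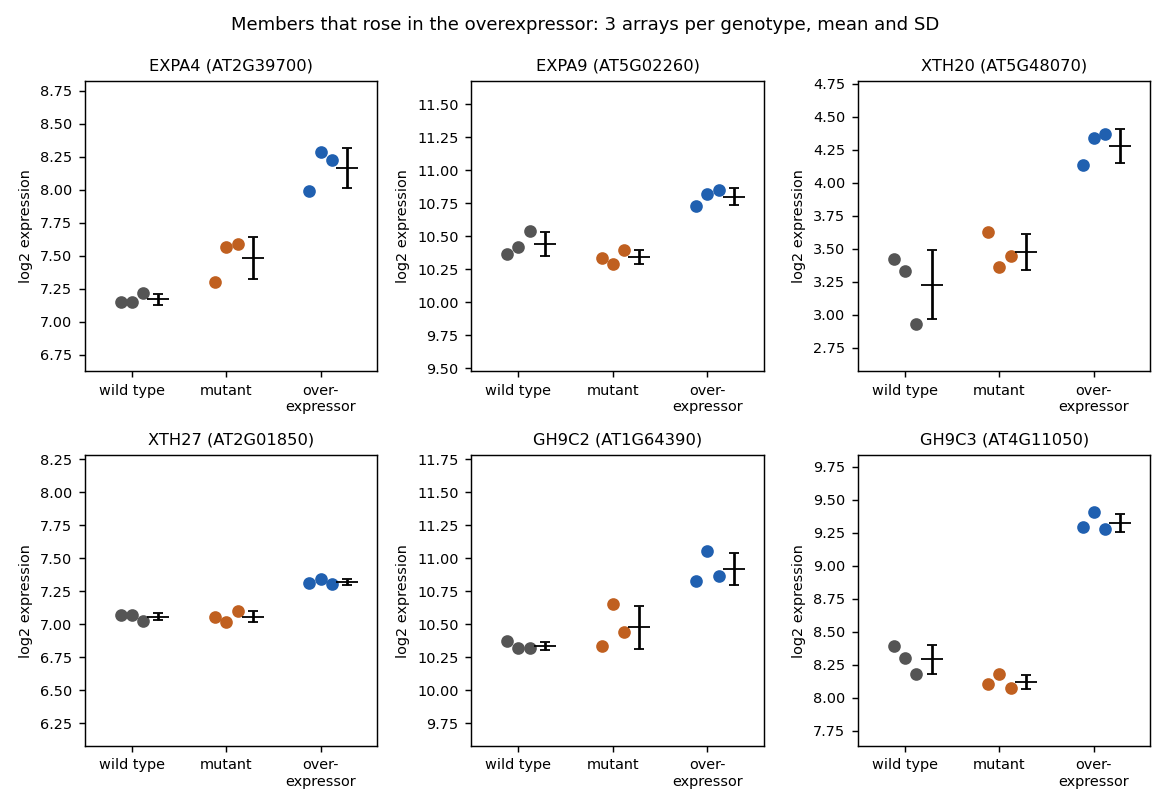
Log2 expression of the 6 genes that rose in the overexpressor, 1 panel per gene; each point is an array (3 per genotype), with the mean and SD (n = 3) beside it, and every panel spans the same range of log2 units around its own centre. The overexpressor points lie above all others in each panel and the gap to the nearest other array is widest for GH9C3, followed by XTH20 and EXPA4.

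The 6 calls were not equally firm. With 1 array left out, GH9C3 (adjusted p from 0.00564 to 0.0116) and EXPA4 (0.0116 to 0.0311) passed in all 6 refits; XTH20 missed without wild-type replicate 2 or overexpressor replicate 2 or 3 (adjusted p = 0.0502, 0.0693 and 0.0648), and EXPA9, GH9C2 and XTH27 missed without any of the 3 wild-type or 3 overexpressor arrays, so that 2 or 3 members passed. EXPA9 and XTH27 also missed once each array was centred on its median (adjusted p = 0.0723 and 0.0668), as did EXPA9, XTH20 and XTH27 in a fit to only the 6 arrays compared (0.121, 0.0616 and 0.101). XTH27 missed after renewed quantile normalization too (adjusted p = 0.0557).

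Among the α-expansins the median log2 change against wild type was 0.07, where the median over all probe sets was -0.01. Only EXPA4 and EXPA9 passed, and most of the others lay within 1 SE of 0. Of the 12 probe sets 11 were positive, beside 18523 of 38408 over the whole table. The exception was 1 of the 2 EXPA20 probe sets, at -0.08 ± 0.10, while the other stood at 0.06 ± 0.08. EXPA20 is thus a gene whose probe sets differed in sign within their error. The root hair α-expansins left out of the members, EXPA7 and EXPA18, were both negative, at -0.19 ± 0.06 and -0.06 ± 0.09. The neighbouring genes EXPA21, EXPA22 and EXPA23, and the neighbouring pair EXPA24 and EXPA25, did not pass, with changes between 0.02 and 0.16; these 5 were named for their position. Signal shared between the probes of such neighbouring relatives was not tested.

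None of the 10 β-expansin and expansin-like genes passed in the overexpressor. EXPB3 (AT4G28250) had the highest change, with levels of 8.77, 8.50 and 8.42 in wild type, 8.42, 9.03 and 8.89 in the mutant and 9.18, 9.41 and 9.07 in the overexpressor. Its overexpressor arrays lay above all others, yet the change of 0.65 ± 0.17 missed the threshold (log2, SE; limma adjusted p = 0.148). EXLA3 (AT3G45960), dim on all 9 arrays, stood at 0.55 ± 0.15 (adjusted p = 0.153), and its neighbour EXLA1 (AT3G45970) at 0.16 ± 0.08. The lowest change was that of EXPB1, at -0.12 ± 0.05, and the median was -0.02.

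The XTHs had a median log2 change of 0.10 in the overexpressor, with 7 of 10 positive. XTH21 (AT2G18800), which is needed for growth of the primary root, had the lowest change, at -0.24 ± 0.13 (adjusted p = 0.478). XTH16 (AT3G23730) stood at -0.21 ± 0.06 (adjusted p = 0.207), and its 3 overexpressor arrays, at 6.44, 6.29 and 6.35, lay below wild type at 6.66, 6.57 and 6.48. The neighbouring genes XTH18 and XTH19 stood at 0.12 ± 0.20 and 0.29 ± 0.12.

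Class B cellulases are secreted without the added binding domain, and class A enzymes sit in the membrane. Of the 14 class B and 2 class A genes 0 passed. GH9B13 (AT4G02290) came nearest to a fall, with levels of 11.55, 11.40 and 11.54 in wild type, 11.38, 11.45 and 11.50 in the mutant and 11.16, 11.25 and 11.15 in the overexpressor. The overexpressor arrays were the lowest, and the change of -0.31 ± 0.07 (log2, SE) missed the threshold (limma adjusted p = 0.0754); it passed with trend and robust eBayes (0.0232), with probe sets below the 25th or 50th percentile of mean level removed (0.0475 and 0.0238) and when probe sets with 1 gene alone were tested (0.0434). GH9B8 stood at 0.32 ± 0.07 (adjusted p = 0.0878), GH9B5 at -0.40 ± 0.14 (adjusted p = 0.251), the largest negative change of the 60, and the class A gene GH9A4 at 0.30 ± 0.12 (adjusted p = 0.31). Of the settings tried, GH9B8 passed in 1, with the dimmer probe sets below the 50th percentile removed (adjusted p = 0.0298).

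The 9 CSL genes gave 0 calls in any comparison, and their changes against wild type lay between -0.27 and 0.17 in the overexpressor. CSLC04 (AT3G28180), a xyloglucan backbone synthase, had the highest value, with 9.93, 9.97 and 10.02 in wild type and 10.27, 10.00 and 10.15 in the overexpressor, a change of 0.17 ± 0.08 (adjusted p = 0.423). These arrays overlapped. CSLC08 (AT2G24630) had the lowest, at -0.27 ± 0.19. The root-hair gene CSLD2 (AT5G16910) stood at -0.06 ± 0.07.

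**Figure D2:**
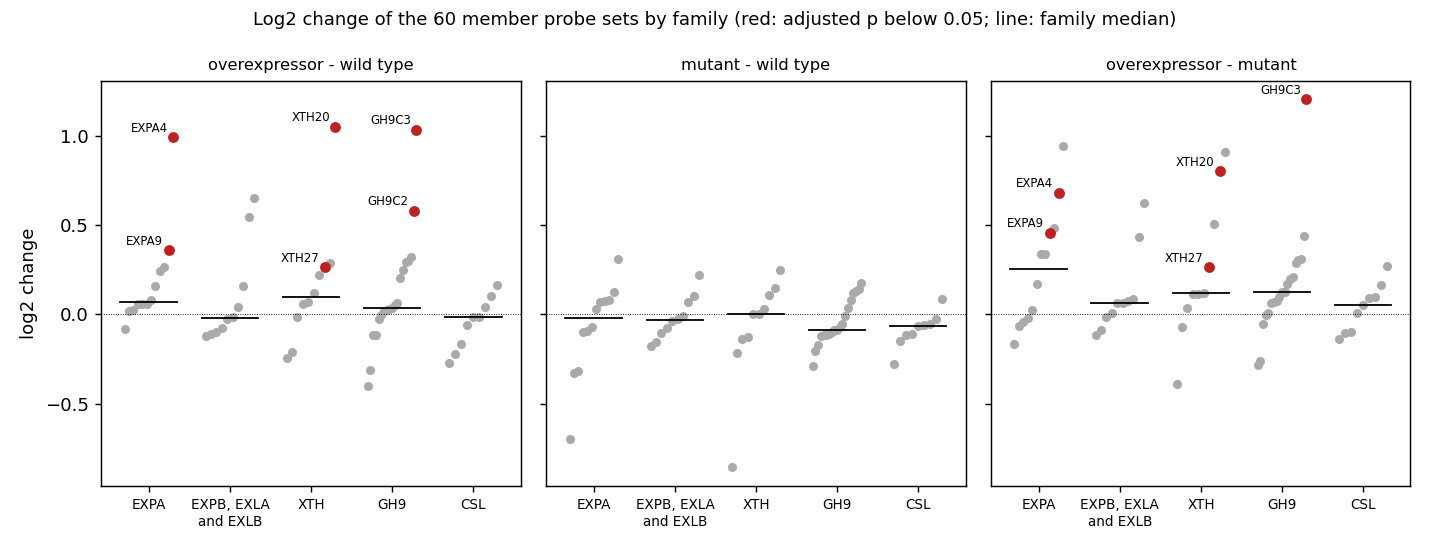
Log2 change of each of the 60 member probe sets (points, ordered within a family) by family in the 3 comparisons, one panel each; red points with names passed at an adjusted p below 0.05 and lines mark family medians. Calls lie among the EXPA, XTH and GH9 points of both panels with the overexpressor, all above 0, and the panel of mutant against wild type holds none.

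The arrays of overexpressor and wild type did not overlap for 20 of the 60 member probe sets (33.3%), 15 higher and 5 lower, and over the whole table this share was 19.5%, 8.85% higher and 10.7% lower. The median log2 change over the members was 0.05, and it was 0.0794 without wild-type replicate 2 and 0.0273 among members above the 50th percentile of mean level. In the same comparison RCPG, a root cap enzyme that cuts pectin in the wall, rose by 1.57 ± 0.15 on the log2 scale (limma adjusted p = 0.00358). It was taken from a general list of root markers and was the 1 of 4 measured that passed. The others were negative, PRX44 at -0.22 ± 0.07, SGN3 at -0.15 ± 0.06 and PRX7 at -0.01 ± 0.09. The 1 of 6 phloem markers measured, SWEET11, read 4.30, 4.31 and 4.12 in wild type and 4.58, 4.28 and 6.39 in the overexpressor, so that overexpressor replicate 3 stood apart. The part of root cap or phloem tissue in the changes above was not tested.

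In the bHLH49 mutant none of the 60 member probe sets passed against wild type, where limma passed 0.0234% of all probe sets, 0.0156% higher and 0.00781% lower. At an unadjusted p below 0.05 there were 6 members, 1 higher and 5 lower, and 8.44% of all probe sets. The median log2 change was -0.06, with 22 positive and 38 negative, against 0.00 over all probe sets, and it was -0.0389 without mutant replicate 3. Arrays did not overlap for 7 members, 1 higher (1.67% of the members, 6.35% of all probe sets) and 6 lower (10.0% of the members, 6.04% of all probe sets). The higher one was EXPA4, at 0.31 ± 0.10 (adjusted p = 0.508), and the lower ones were EXPA8, XTH26, GH9C1, CSLD2, XTH16 and EXPB1. In their families, EXPB5 and CSLC08 had the lowest change in the mutant, at -0.18 ± 0.07 and -0.28 ± 0.19. EXPB3 (0.22 ± 0.17), GH9B16 (0.18 ± 0.14) and CSLA01 (0.09 ± 0.09) had the highest of theirs. CSLD2, XTH16, XTH18, XTH19, EXLA1, GH9B13, GH9B8 and GH9A4 were named after their values were seen.

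XTH26 (AT4G28850), an XTH of root hairs, had the lowest change of the 60 in the mutant. Its level was 7.62, 7.73 and 7.13 in wild type, 6.84, 6.83 and 6.25 in the mutant and 7.63, 7.51 and 7.51 in the overexpressor. The mutant arrays lay below the other 6, but both groups spread widely, with an SD of 0.32 in wild type and 0.34 in the mutant (n = 3). The change was -0.86 ± 0.20 (log2, SE), which missed the threshold over all probe sets (limma adjusted p = 0.365).

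EXPA8 (AT2G40610), an α-expansin, showed the same order. It read 8.31, 8.45 and 7.98 in wild type, 7.42, 7.32 and 7.90 in the mutant and 8.45, 8.30 and 8.73 in the overexpressor. Mutant replicate 3 came close to wild-type replicate 3, and the change against wild type was -0.70 ± 0.19 (limma adjusted p = 0.439). GH9C1, the root-hair cellulase, had levels of 10.26, 10.33 and 10.19 in wild type, 10.00, 10.13 and 9.79 in the mutant and 10.26, 10.34 and 10.23 in the overexpressor, and its change was -0.29 ± 0.09 (adjusted p = 0.493).

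CSLD2, which root hairs need for their walls, read 9.27, 9.34 and 9.17 in wild type and 9.15, 9.13 and 9.05 in the mutant, a change of -0.15 ± 0.07 (adjusted p = 0.61). XTH16 and EXPB1 stood below wild type in both altered lines and passed in neither. In the mutant they were at -0.14 ± 0.06 and -0.11 ± 0.05 (limma adjusted p = 0.617 and 0.646). Both comparisons share the wild-type arrays. The 4 measured of 10 root hair markers, EXPA7, EXPA18, PRX7 and PRX44, had a summed level of 11.92 to 12.02 in wild type, 11.66 to 11.81 in the mutant and 11.81 to 11.89 in the overexpressor, with 0 passing in any comparison. The summed ranges of both altered lines thus lay below that of wild type, but the 4 markers differed among themselves in the overexpressor. There EXPA7 and PRX44 stood at -0.19 ± 0.06 and -0.22 ± 0.07, and EXPA18 and PRX7 at -0.06 ± 0.09 and -0.01 ± 0.09. XTH26 and GH9C1 stood at 0.06 ± 0.20 and 0.02 ± 0.09 in the same line. In the mutant all 4 markers were below wild type, from -0.37 ± 0.09 for EXPA18 to -0.16 ± 0.07 for PRX44. The part of these markers in the mutant values of XTH26, GH9C1 and CSLD2 was not tested.

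**Figure D3:**
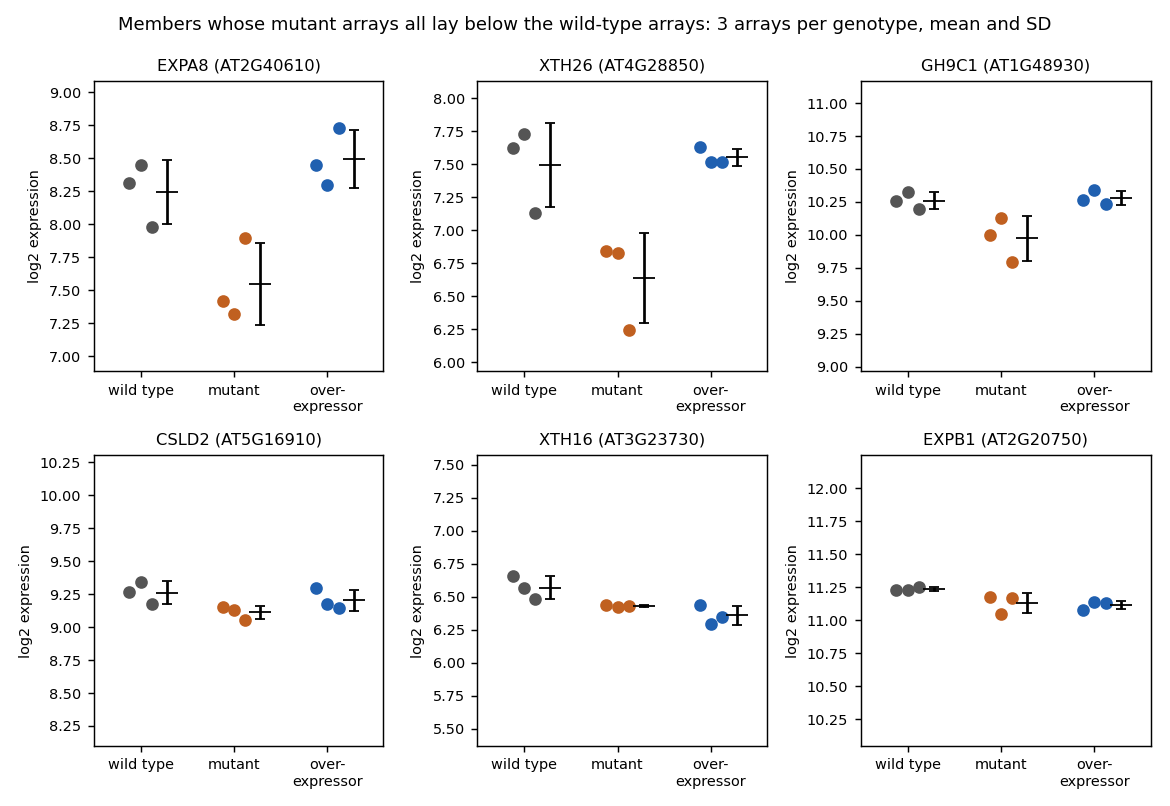
Log2 expression of the 6 members whose mutant arrays all lay below the wild-type arrays, 1 panel per gene on the same span of log2 units; points are arrays (3 per genotype) with the mean and SD (n = 3) beside them. For EXPA8, XTH26 and GH9C1 the overexpressor points lie in or near the wild-type range, and for EXPB1 and XTH16 both altered lines lie below wild type.

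The 6 genes that rose in the overexpressor did not pass in the mutant. EXPA4, XTH20 and GH9C2 stood above wild type there, at 0.31 ± 0.10, 0.25 ± 0.14 and 0.14 ± 0.09 on the log2 scale. EXPA9 and GH9C3 stood below it, at -0.10 ± 0.07 and -0.17 ± 0.07, and XTH27 at 0.00 ± 0.05. EXPA4, XTH20 and GH9C2 thus had positive values in both lines, which share the wild-type arrays as their baseline. RCPG, which rose in the overexpressor, stood at 0.63 ± 0.15 in the mutant (limma adjusted p = 0.365). Its part in these values was not tested. Adjusted p-values of these 6 genes in the mutant lay between 0.508 and 0.997.

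Set against the mutant, the overexpressor had 5 higher members, 0 lower and 55 that did not pass, where 1.83% of all probe sets passed, 0.971% higher and 0.857% lower. GH9C3 was 2.31-fold higher (log2 1.21 ± 0.07, SE; limma adjusted p = 0.000562). EXPA4 and XTH20 were higher by 0.68 ± 0.10 (adjusted p = 0.0191) and 0.80 ± 0.14 (adjusted p = 0.0335). EXPA9, at 0.46 ± 0.07, and XTH27, at 0.26 ± 0.05, passed as well (adjusted p = 0.0166 and 0.042), while GH9C2, at 0.44 ± 0.09, did not (adjusted p = 0.0709). RCPG was higher here too, by 0.94 ± 0.15 (limma adjusted p = 0.0221), and its part in these values was not tested.

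EXPA8 and XTH26, the members with the lowest changes in the mutant, stood 0.94 ± 0.19 and 0.91 ± 0.20 above it in the overexpressor and missed the threshold (limma adjusted p = 0.0569 and 0.0727). XTH19 stood at 0.51 ± 0.12 (adjusted p = 0.103) and EXLA3 at 0.62 ± 0.15 (adjusted p = 0.0887). Among α-expansins the median was 0.26, the highest of the 5 families in this comparison. CSLC04 was the highest CSL gene, at 0.27 ± 0.08 (limma adjusted p = 0.164). At the other end were XTH21, at -0.39 ± 0.13, and GH9B5, at -0.28 ± 0.14. EXLB2 (-0.12 ± 0.10) and CSLC12 (-0.14 ± 0.13) were the lowest of their families. Among α-expansins the lowest was the EXPA20 probe set that lay below wild type in the overexpressor, at -0.16 ± 0.10. GH9B13 stood at -0.26 ± 0.07 (limma adjusted p = 0.11), with its overexpressor arrays below those of the mutant. The arrays did not overlap for 18 members in the higher direction (30.0% of the members, 9.31% of all probe sets) and 2 in the lower (3.33% and 11.2%), and the median log2 change was 0.09.

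With 1 array left out, GH9C3 was called in all 6 refits of overexpressor against mutant, XTH20 and XTH27 in 0, EXPA9 missed without mutant replicate 1 or 2 or overexpressor replicate 2 or 3 (adjusted p from 0.0596 to 0.0722), and EXPA4 missed without mutant replicate 2 or overexpressor replicate 2 or 3 (0.0502 to 0.082). In a fit to only the 6 arrays compared EXPA4, EXPA9 and XTH27 missed as well (adjusted p = 0.0879, 0.0529 and 0.124). EXPA8 passed without mutant replicate 3 (adjusted p = 0.0366) and under 6 of the 9 other settings, XTH26 under 3 of them, and EXLA3 under 1 (adjusted p = 0.0494). GH9C2 passed under 4 of them (0.0272 to 0.0403) and without mutant replicate 2 (0.0457). GH9B8 passed under 1, as a rise (limma adjusted p = 0.0383), and GH9B13 under 2, as a fall (0.039 and 0.0392).

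Asked whether the 3 genotypes differed at all, the moderated F test passed 4 of the 60 member probe sets, GH9C3, EXPA4, XTH20 and EXPA9, and 1.53% of all probe sets. The adjusted p-values were 0.00103, 0.0093, 0.0221 and 0.0313. GH9C2 and XTH27, which had passed against wild type, missed it by little (0.05 and 0.0537).

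**Figure D4:**
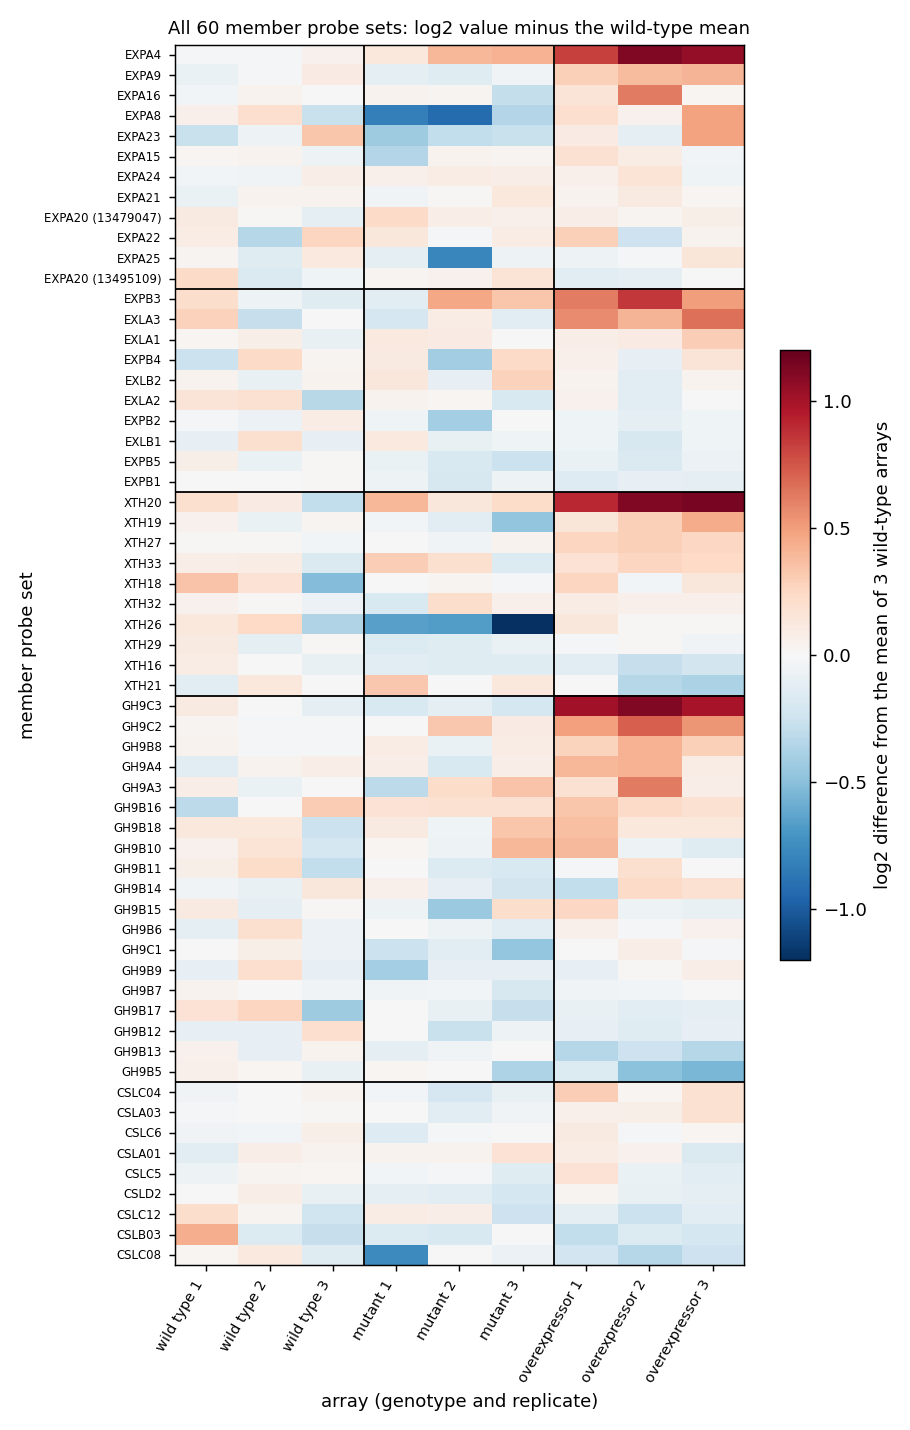
Each row is one of the 60 member probe sets and each column one of the 9 arrays; colour is the log2 value minus the mean of the 3 wild-type arrays (red higher, blue lower), with rows grouped by family and ordered by the change in the overexpressor. EXPA4, XTH20 and GH9C3 are red on all 3 overexpressor arrays, EXPA8 and XTH26 are blue on all 3 mutant arrays, and the CSL rows stay pale apart from single arrays.

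Of 99 names of other wall genes in 4 lists, which include some synonyms, 6 had a probe set with 1 gene. Among these 0 passed in any of the 3 comparisons. For the lists of xyloglucan synthesis and of other wall extension genes 0 were measured. COB (AT5G60920), a surface protein that orients cellulose deposition, stood at 0.04 ± 0.05 in the overexpressor and 0.01 ± 0.05 in the mutant. The wall-sensing receptor kinases FER and THE1 stood at 0.08 ± 0.07 and -0.14 ± 0.08 in the overexpressor, and at -0.15 ± 0.07 and -0.21 ± 0.08 in the mutant. TRM21 stood at -0.08 ± 0.06 and -0.10 ± 0.06. The xylan genes IRX10 and IRX15, which act in secondary walls, stood at 0.08 ± 0.07 and 0.03 ± 0.07 in the overexpressor and at 0.08 ± 0.07 and -0.05 ± 0.07 in the mutant.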

How the data were processed

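The authors deposited log2 values of 38408 probe sets on 9 single-channel arrays; RMA, which corrects background, makes distributions alike and summarises probes, is named in the submitters' processing notes without settings. There is no read depth; 9 arrays limit the precision. Names came from the platform annotation and NCBI RefSeq (TAIR10.1, names and neighbours only); 20927 were not listed and 759 had several genes. Values were used as deposited and fitted with limma 3.58.1 in R 4.3.3 (lmFit, eBayes; 6 residual and 1.85 prior degrees of freedom), Benjamini-Hochberg over all probe sets, and the fit was tested on simulated data. Members, lists and tests were chosen with earlier results of these data known. Named are members called in any test, the highest and lowest change per family and comparison, EXPA genes in neighbouring groups and members dim on all 9 arrays. Others are said to be named after their values were seen, and 4 root markers were matched by locus. Summed marker levels are log2 of summed linear values. Deviations from the group means correlated at -0.09 to 0.03 over 9 same-numbered pairs of arrays. Taken over the whole table, this cannot settle pairing for single genes. Neither sequences nor promoter motifs were used here. Alternatives were a replicate block, trend and robust eBayes, a fit to 6 arrays, 2 renormalizations, 2 filters, 2 feature sets and leaving out each array.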

Additional observations from a re-analysis of the deposited data

How the results depend on the processing

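Members that passed in overexpressor against wild type numbered 6 as reported, 2 with a replicate block, 3 with only the 6 arrays compared and 2 to 3 without 1 array, and 4 to 7 otherwise. The 2 filters on mean level removed XTH20, so its calls could not be tested there. Above the 25th percentile 5 members passed higher and 1 lower, and above the 50th 6 higher and 1 lower. In each case 5 of them were calls as reported. The block ended the calls of EXPA9, GH9C2, XTH20 and XTH27 (adjusted p = 0.0854, 0.0666, 0.0666 and 0.153). The labels do not say whether a repeat number marks a shared batch. For overexpressor against mutant the 5 became 3 with the replicate block, where XTH20 and XTH27 missed (adjusted p = 0.0905 and 0.127), 2 in the fit to 6 arrays, 9 with eBayes trend and robust, 9 above the 50th percentile of the mean, 9 among probe sets with 1 gene, and 1 to 4 without 1 array. The F test passed 4, and 2 with the replicate block, 7 with trend and robust, 9 above the 50th percentile and 1 to 4 without 1 array. In the mutant 0 passed under every one of these settings. The median change over members in the mutant was -0.0914 with arrays centred on their medians (-0.062 as reported), where that over all probe sets was -0.028. XTH27 in the mutant, at 0.00, turned to -0.023 with quantile normalization and -0.028 with centred arrays, and lay between -0.022 and 0.021 without 1 array. Without 1 array, the second EXPA20 probe set in the overexpressor lay between -0.17 and 0.033, XTH26 between -0.13 and 0.17 and GH9C1 between -0.013 and 0.053. Of 909 recomputed values of single genes, 822 kept direction and call, 55 lost the call, 24 gained it and 8 changed sign. They came from 62 named values, most of which were not called as reported. The 822 were thus mostly values that stayed uncalled. All 55 losses fell on the 6 calls against wild type and the 5 against the mutant. The causes were not tested.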
